A study of Mus musculus with 21 samples.

Results

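The mitotic cell cycle genes described here are 44 genes that mouse cells use to enter mitosis, attach and separate chromosomes, and divide, together with 2 transcription factors that switch many of them on. They were taken by gene symbol from a table of 24454 genes, and each of the 44 was in it. All 44 passed the filter on low counts, as did 13719 genes of the table, and the lowest count of a member in any library was 904, for Cdc25c.

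RNA was sequenced from mouse embryonic fibroblast (MEF) lines in 7 groups of 3 libraries, labelled as biological replicates, to ask how loss of the helicase RTEL1 changes gene expression. Every group was infected with an adenovirus and collected 96 h later. Rtel1F/F cells, whose Rtel1 alleles are floxed (Rtel1f/f in the labels), received the GFP virus (+GFP), which leaves the alleles in place, or the Cre virus (+Cre), which deletes them, or the GFP virus and, for the last 48 h, 10 μM TMPyP4, a porphyrin that stabilizes G4-DNA (four-stranded structures of guanine-rich DNA). The same floxed line expressing RTEL1 C1252A/C1255A from a retroviral vector, and Terf1F/F cells (Trf1f/f in the labels), which are floxed for the telomere-binding factor TRF1, each received the GFP or the Cre virus. The labels give 1 cell line name per floxed genotype, so a difference between genotypes cannot be told apart from a difference between lines, and p-values measure only the spread between the libraries of a group.

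Mitosis is driven by CDK1 bound to cyclin B, which is switched on by CDC25 phosphatases and helped by the Polo-like and Aurora kinases. The spindle assembly checkpoint (BUB and MAD proteins) holds back the anaphase-promoting complex (APC/C) until chromosomes are attached through kinetochores, after which the APC/C destroys cyclin B and securin. The messages of most of these proteins rise together in G2 and M under B-MYB, FOXM1 and the MuvB complex, which binds the CHR element beside CCAAT boxes bound by NF-Y. In a mixed culture the level of such a gene therefore follows both the share of cells in G2 and M and the amount of RNA in each of them, and in bulk RNA fewer cells of a type and less RNA per cell cannot be told apart.

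The promoters showed the sequence features that these genes share. RefSeq windows of 300 bases on GRCm38.p6 (250 before and 50 after a start site) were found for 37 of the 44 genes, 40 windows in all, 3 genes having more than 1 window. The other 7 were Aurkb, Ccna2, Incenp, Cdc25c, Foxm1, Kif20a and Tpx2. A CHR element, searched as TTTGAA or TTTAAA on both strands, was in 80.0% of the 40 windows and in 27.6% of the 32851 windows of all genes. CCAAT was in 75.0% against 37.4%, both together were in 70.0% against 10.7%, and the GC box GGGCGG was in 82.5% against 35.7%, whereas TATAAA was in 2.5% against 13.6%. Of the 16 windows of genes that were increased in Rtel1F/F +Cre cells (below), 87.5% held a CHR element, and of the other 24 windows 75.0% did, so the element was common among the genes that rose and among those that did not. The windows from 100 bases before to 30 bases after the start site are shown for 6 genes on which the results turn, 4 that were increased after Cre and Top2a and Mki67, which were not. Sites outside this stretch are not shown, such as CCAAT sites of Mki67 that start at -188, -166 and -141, and some of Hmmr, Cdk1 and Top2a. Each window is written in the direction of the gene, with CHR and CCAAT letters of either strand in capitals (on the opposite strand they read TTCAAA and ATTGG).
Ccnb1, chr13:100786457-100786586, minus strand: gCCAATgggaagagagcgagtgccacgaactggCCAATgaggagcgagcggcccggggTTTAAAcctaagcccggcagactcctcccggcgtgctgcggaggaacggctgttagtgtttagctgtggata
Aurka, chr2:172370541-172370670, minus strand: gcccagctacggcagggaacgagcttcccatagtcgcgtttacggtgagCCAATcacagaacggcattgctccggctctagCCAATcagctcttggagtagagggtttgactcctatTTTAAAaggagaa
Hmmr, chr11:40733408-40733537, minus strand: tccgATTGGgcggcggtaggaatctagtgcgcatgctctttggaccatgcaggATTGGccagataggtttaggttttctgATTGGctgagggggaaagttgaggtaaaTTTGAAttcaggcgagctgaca
Cdk1, chr10:69352883-69353012, minus strand: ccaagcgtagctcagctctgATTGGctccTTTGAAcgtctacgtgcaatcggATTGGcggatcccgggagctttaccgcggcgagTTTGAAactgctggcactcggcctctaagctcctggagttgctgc
Top2a, chr11:99024160-99024289, minus strand: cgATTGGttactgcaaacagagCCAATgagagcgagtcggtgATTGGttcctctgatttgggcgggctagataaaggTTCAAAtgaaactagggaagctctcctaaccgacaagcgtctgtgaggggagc
Mki67, chr7:135716350-135716479, minus strand: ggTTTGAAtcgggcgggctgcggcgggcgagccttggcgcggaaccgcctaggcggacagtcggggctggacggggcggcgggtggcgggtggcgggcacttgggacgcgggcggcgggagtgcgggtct

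Total counts per library were between 32069888 and 51938593. Rtel1 itself was at 59.1 to 66.2 CPM (counts scaled to library size) in Rtel1F/F +GFP and at 26.8 to 31.9 CPM in +Cre libraries, and Terf1 fell from 27.9 to 30.3 CPM to at most 0.110 CPM after Cre in Terf1F/F cells. In the cells that also carried the RTEL1 C1252A/C1255A vector Rtel1 was at 253 to 338 CPM. Of 12 fibroblast markers 10 were at 1 TPM (transcripts scaled per length and library) or more in every library. Endothelial markers summed to at most 1.71 TPM, and 5 of 7 immune markers, Ptprc among them, were under 1 TPM throughout. The summed fibroblast markers were lower in the libraries of the Rtel1F/F +Cre (6641 to 7092 TPM) and TMPyP4 (6149 to 7112 TPM) groups than in those of Rtel1F/F +GFP (8963 to 10074 TPM), while the summed epithelial markers were higher in +Cre (6.94 to 9.99 TPM, mostly Krt18 and Krt19) and TMPyP4 (4.29 to 5.69 TPM) than in +GFP (3.23 to 3.81 TPM) and the summed immune markers were higher in +Cre (12.1 to 16.6 TPM, against 9.27 to 9.87 TPM, mostly Cd14 and Cd68). Adgre1 and Cd3e were at 0 in every library, Ptprc was at most 0.03 TPM and Epcam at most 0.76 TPM, and the part of these differences in the results below was not tested.

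All 44 genes were transcribed in each library. In Rtel1F/F +GFP cells the levels, compared per length in TPM, ran from 336 ± 23.2 TPM (SD, n = 3) for Top2a, the topoisomerase that untangles sister chromatids, through 276 ± 4.15 TPM for Ccnb1 (cyclin B1), to 23.9 ± 0.601 TPM for Kif18a, a kinesin that limits chromosome movement. Top2a, Ube2c (the APC/C's ubiquitin-conjugating enzyme, 331 ± 33.1 TPM), Ccna2 (cyclin A2, 320 ± 8.22 TPM) and Racgap1 (a cytokinesis factor, 316 ± 12.7 TPM) lay within their spread of each other.

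The mean log2 CPM of the 44 genes, after TMM scaling of libraries, was 7.13 ± 0.04 in Rtel1F/F +GFP libraries, the lowest of the 5 groups made from the Rtel1F/F line. It was 7.32 ± 0.06 in +Cre, 7.22 ± 0.04 with TMPyP4, 7.33 ± 0.05 and 7.35 ± 0.04 in RTEL1 C1252A/C1255A +GFP and +Cre, and 6.75 ± 0.04 and 6.76 ± 0.03 in Terf1F/F +GFP and +Cre (SD, n = 3 each). The 3 Rtel1F/F +Cre libraries lay between 7.27 and 7.38, above all 3 +GFP libraries at 7.10 to 7.17. The CPM of the 44 genes summed to 7762 to 8291 in Rtel1F/F +GFP and to 8544 to 9428 in +Cre libraries. On the deposited TPM scale the same 44 genes summed to 5545 ± 155 TPM in Rtel1F/F +GFP and 5552 ± 470 TPM in +Cre. The difference between these groups was therefore present in summed CPM and not in summed TPM.

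**Figure D1:**
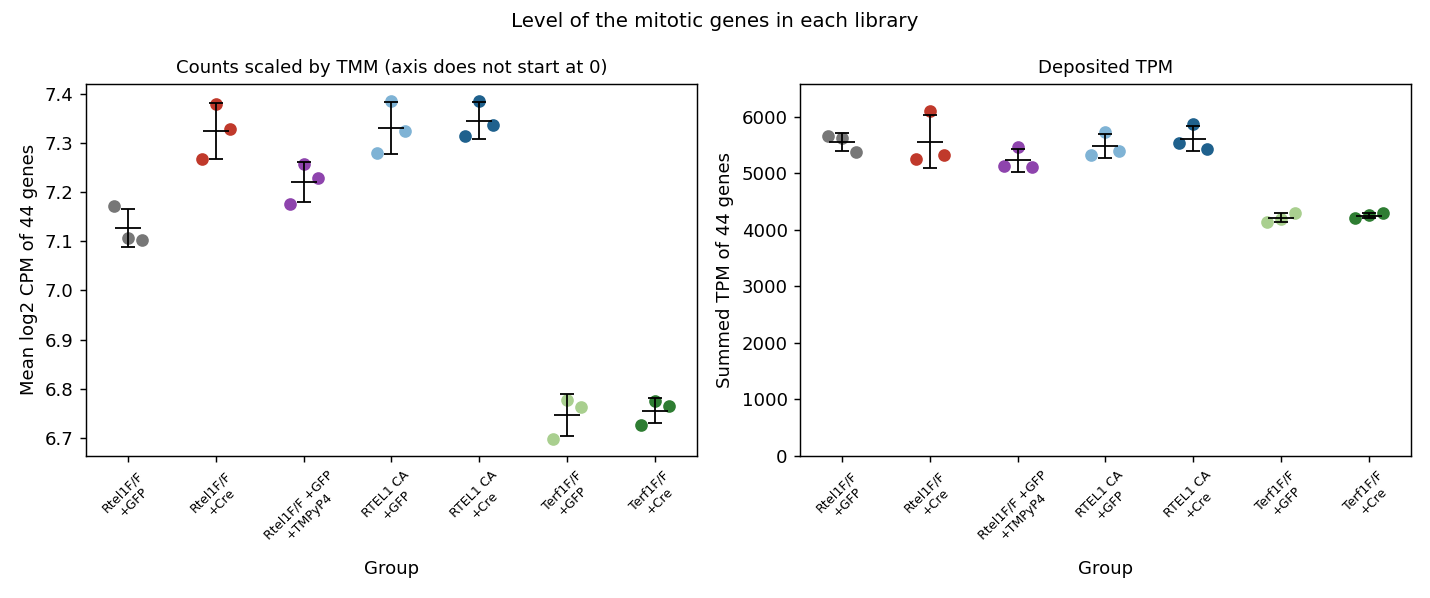
Level of the 44 mitotic genes in each library, as mean log2 CPM after TMM scaling (left, axis not from 0) and as summed deposited TPM (right). Points are libraries, bars are the group mean and SD (n = 3), and RTEL1 CA stands for RTEL1 C1252A/C1255A. Rtel1F/F +GFP libraries were at 7.10 to 7.17 and +Cre libraries at 7.27 to 7.38 on the left, and their ranges overlapped on the right.

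After deletion of Rtel1, the messages of many G2 and M genes were modestly higher on the TMM scale. Comparing Rtel1F/F +Cre with +GFP cells, 18 of the 44 genes were increased and 1, Mki67, was reduced (edgeR's quasi-likelihood test, Benjamini-Hochberg adjusted p of at most 0.01 over all 13719 genes tested). The 18 are 40.9% of the members, beside 22.0% of all genes tested that were increased, and the single fall is 2.27%, beside 21% of all genes tested. The median log2 fold change was 0.23 over the 44 genes and -0.03 over all genes tested. No change exceeded 1.56-fold. Without +Cre replicate 2, 12 of the 44 genes passed (10 increased, 2 reduced), and 10 passed when only these groups were fitted. In these fits 36.1% and 34.4% of all genes were called in either direction, beside 43.0% in the full fit.

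The largest rises were in genes of mitotic entry and spindle assembly. Ccnb1, the B-type cyclin that partners CDK1, was at 305, 285 and 301 CPM in Rtel1F/F +GFP libraries and at 437, 507 and 441 CPM in +Cre libraries. It was 1.55-fold higher, with a log2 fold change of 0.64 ± 0.08 (SE) and an adjusted p of 2.17e-06, and the groups did not overlap. Aurka, the centrosomal Aurora kinase, went from 77.1, 65.9 and 69.5 CPM to 100, 114 and 117 CPM, a log2 fold change of 0.64 ± 0.09 (adjusted p = 1.05e-05). Hmmr, which encodes a microtubule-binding spindle protein, went from 137, 125 and 120 CPM to 178, 213 and 194 CPM, a log2 fold change of 0.61 ± 0.09 (adjusted p = 1.71e-05). For both genes every +Cre library was above every +GFP library.

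In the role groups that follow, the rises stand beside the 22.0% of all genes tested that were increased, and groups this small allow no reading of 1 role against another. Among cyclins and CDK1 regulators 5 of 7 (71.4%) were increased. Cdk1 itself was at 292, 289 and 310 CPM and then at 379, 389 and 407 CPM (log2 fold change 0.40 ± 0.06, adjusted p = 3.44e-05). Ccnb2, Ccnf (cyclin F, a subunit of an SCF ubiquitin ligase) and Cdc25c, a phosphatase that activates CDK1, rose by 0.30, 0.30 and 0.36 on the log2 scale. Ccna2 was at a log2 fold change of 0.07, and Cdc25b at -0.14, neither past the test.

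Of 6 mitotic kinases 3 (50%) were increased: Aurka, Bub1 (0.34 ± 0.09) and Bub1b (0.32 ± 0.07), the last pair being checkpoint proteins. Plk1, the Polo-like kinase, spread from 68.4 to 80.5 CPM in +GFP and from 71.3 to 101 CPM in +Cre libraries, which overlapped, and its log2 fold change of 0.28 ± 0.14 did not pass (adjusted p = 0.10). Aurkb, the kinase of the chromosomal passenger complex, was at 76.6 to 80.1 and 78.8 to 88.6 CPM (0.09 ± 0.06, adjusted p = 0.187). Its partner Birc5 (survivin) did rise, from 104, 102 and 105 CPM to 144, 160 and 156 CPM (0.56 ± 0.09, adjusted p = 2.89e-05), while Incenp, the scaffold of the same complex, was at a log2 fold change of 0.09.

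Checkpoint and anaphase factors gave 2 rises of 5 (40.0%). Mad2l1 (MAD2, the inhibitor of CDC20) went from 138, 141 and 147 CPM to 203, 214 and 190 CPM, a log2 fold change of 0.51 ± 0.10 (adjusted p = 0.000276). Bub3, which carries BUB1 to kinetochores, went from 120, 111 and 119 CPM to 142, 134 and 142 CPM (0.25 ± 0.06, adjusted p = 0.00171). Cdc20, the APC/C activator, and Pttg1 (securin) were at log2 fold changes of 0.10 and 0.24 and did not pass.

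Of 8 centromere and kinetochore genes 2 were increased (25.0%, near the share of all genes), Birc5 and the centromeric histone gene Cenpa (110, 109 and 119 CPM against 139, 139 and 136 CPM). The outer kinetochore genes Ndc80, Nuf2 and Spc25 had log2 fold changes of 0.10 to 0.31 that did not pass. Of 6 kinesins 3 (50%) were increased, led by Kif20a, which acts in cytokinesis (264, 241 and 248 CPM against 354, 385 and 353 CPM, log2 fold change 0.54 ± 0.06, adjusted p = 9.17e-07). Kif11, the kinesin that pushes spindle poles apart, was at -0.03. Of 8 spindle and cytokinesis genes 3 (37.5%) were increased (Hmmr, Tpx2 and Anln), and Racgap1, at 430 to 452 CPM and 431 to 451 CPM, had a log2 fold change of -0.00 ± 0.05.

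Mki67, which encodes the Ki-67 proliferation marker that coats mitotic chromosomes, moved the other way. It was at 566, 555 and 464 CPM in +GFP and at 370, 367 and 314 CPM in +Cre libraries, a log2 fold change of -0.59 ± 0.13 (adjusted p = 0.000663) with no overlap. Aspm, a spindle pole protein, was at 131, 136 and 115 CPM against 105, 109 and 94.0 CPM (-0.31 ± 0.10, adjusted p = 0.0108), just outside the threshold. Top2a was at 801 to 904 CPM and 808 to 942 CPM, a log2 fold change of 0.01 ± 0.07. The transcription factors did not pass either: Foxm1 was at 218, 203 and 200 CPM against 186, 158 and 179 CPM (-0.25 ± 0.09, adjusted p = 0.0192), and Mybl2 (B-MYB), at 81.5 to 95.2 CPM and 84.0 to 111 CPM, overlapped (0.23 ± 0.13, adjusted p = 0.161).

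**Figure D2:**
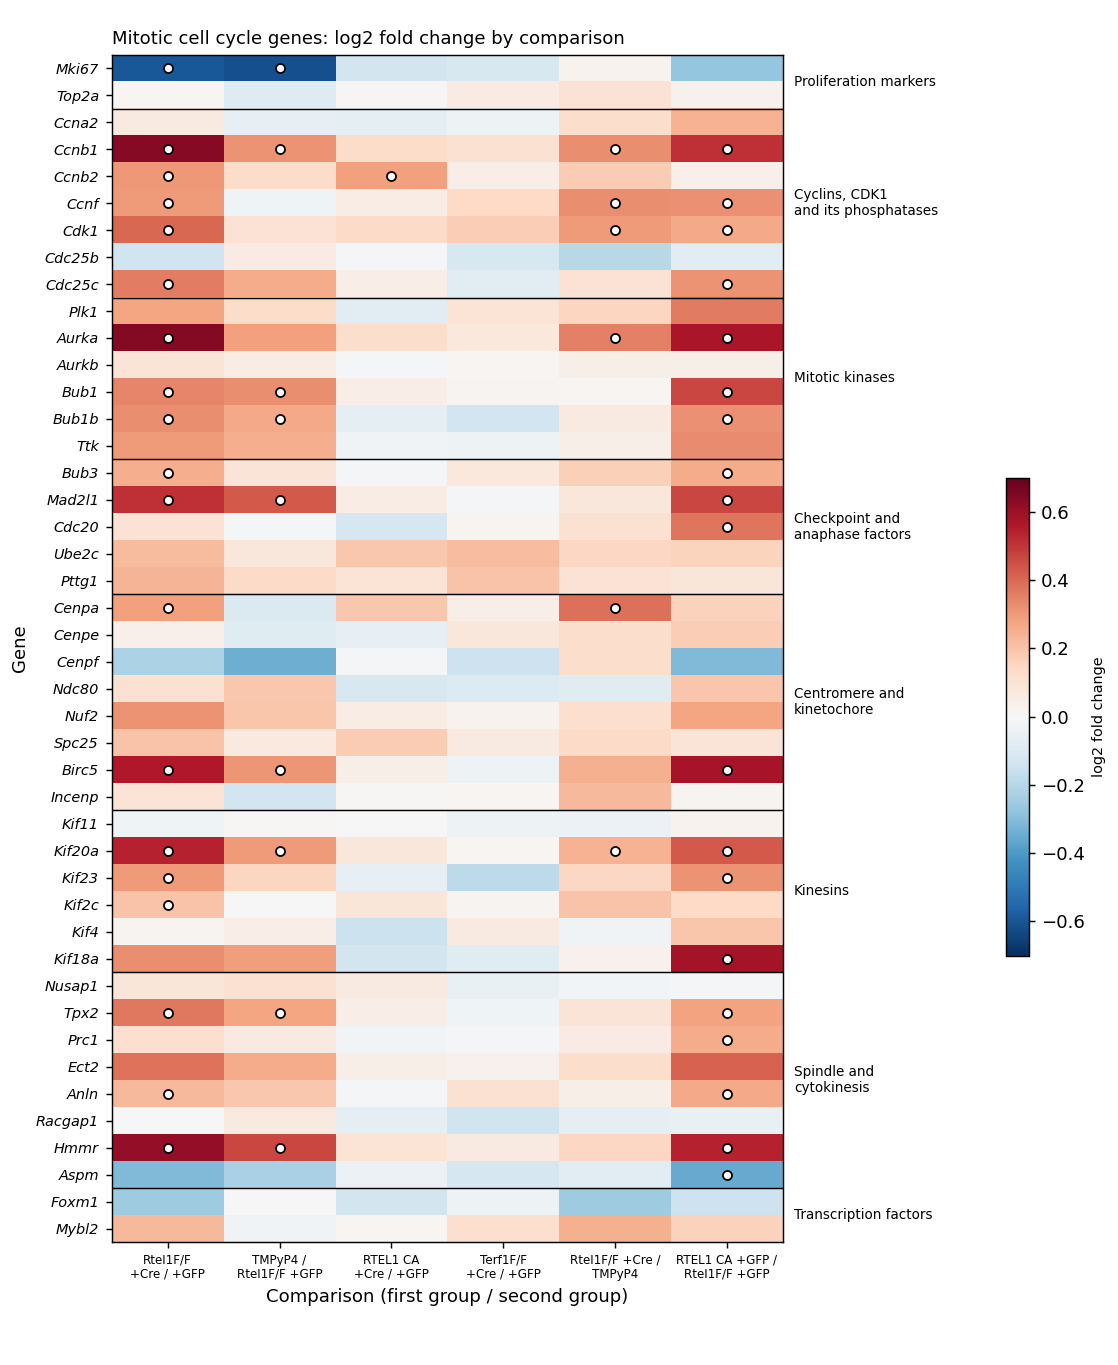
Log2 fold change of each of the 44 genes (rows, by role) in 6 comparisons (columns, first group over second). Red is higher, blue is lower, and a white dot marks an adjusted p of at most 0.01. Dots fill 19 rows of the Rtel1F/F +Cre column and 19 of the RTEL1 CA +GFP column, 1 row of the RTEL1 CA +Cre column and none of the Terf1F/F column.

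**Figure D3:**
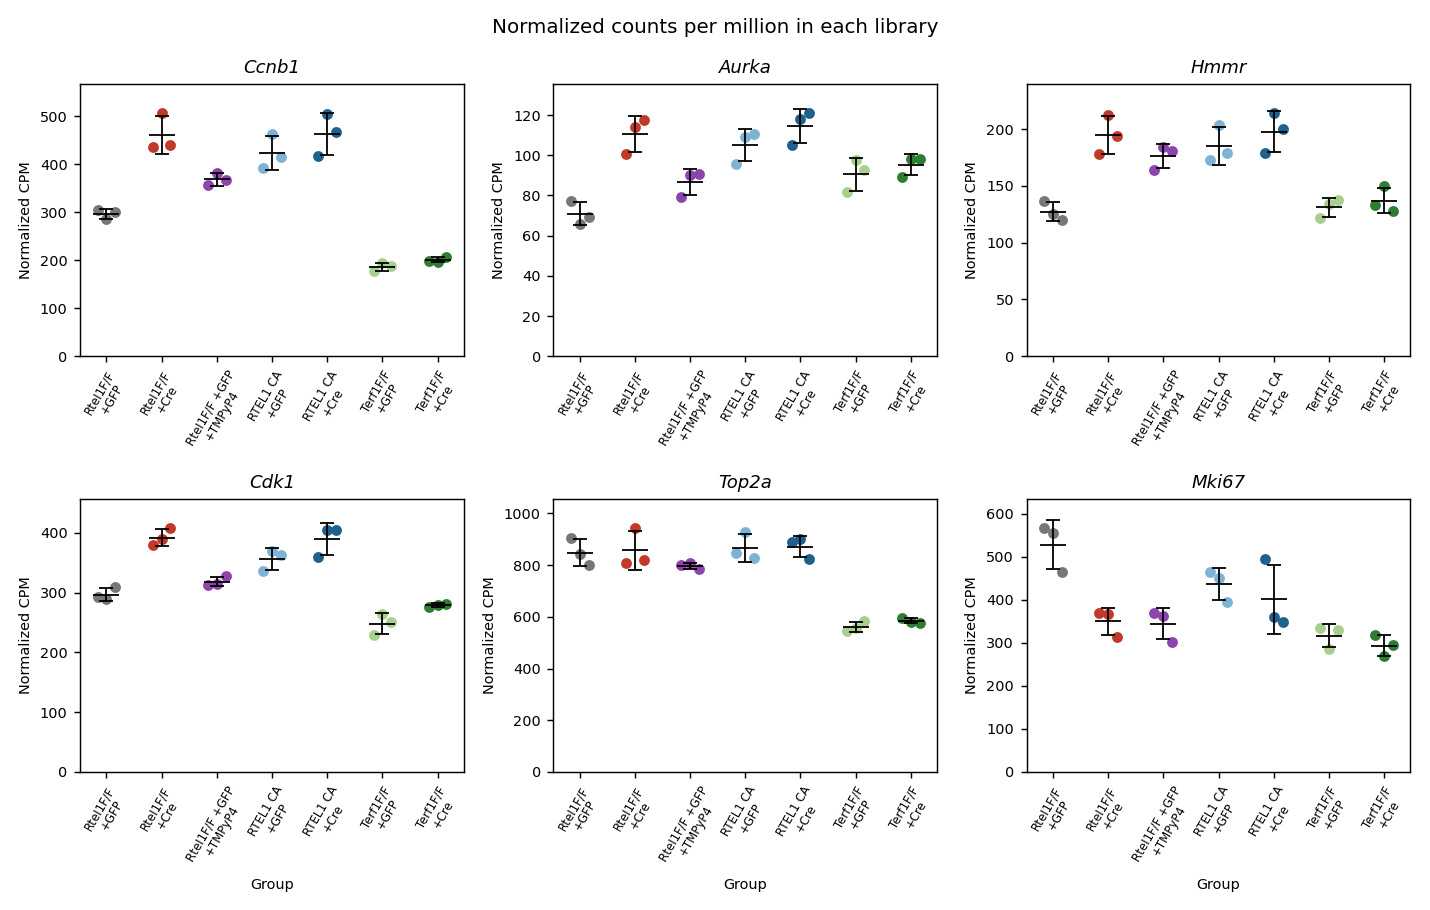
Normalized CPM (vertical axis from 0) of 6 mitotic genes in each library of the 7 groups, with group mean and SD (n = 3). For Ccnb1, Aurka, Hmmr and Cdk1 the Rtel1F/F +GFP libraries lie below the other 4 groups of that line, for Mki67 they lie above the +Cre and TMPyP4 libraries, and for Top2a those groups overlap.

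TMPyP4 was followed by smaller changes in fewer of the genes. Against the same Rtel1F/F +GFP libraries, 8 of the 44 genes were increased and 1, again Mki67, was reduced. The rises are 18.2% of the members, close to the 16.6% of all genes tested that were increased, and the fall is 2.27%, beside 13.4% of all genes. The median log2 fold change was 0.10 over the 44 genes and -0.01 over all genes. Since both comparisons use these +GFP libraries, their values are set side by side here without a test of likeness.

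Hmmr showed the largest rise with TMPyP4, to 164, 184 and 181 CPM, a log2 fold change of 0.47 ± 0.09 (adjusted p = 0.000447). Mad2l1 reached 175, 199 and 201 CPM (0.43 ± 0.10, adjusted p = 0.00192) and Bub1, from 115, 108 and 106 CPM, reached 129, 143 and 139 CPM (0.33 ± 0.09, adjusted p = 0.00712). For these genes the treated libraries were all above the +GFP libraries. Ccnb1 was at 357, 383 and 367 CPM (0.31 ± 0.08, adjusted p = 0.00354), and Birc5, Kif20a, Tpx2 (the activator of Aurora A) and Bub1b rose by 0.31, 0.30, 0.28 and 0.26 on the log2 scale. Mki67 was at 370, 362 and 303 CPM, a log2 fold change of -0.62 ± 0.13 (adjusted p = 0.000799). Cdk1, at 314, 314 and 327 CPM (0.10 ± 0.06), Aurka (0.29 ± 0.09, adjusted p = 0.0152), Top2a (-0.09 ± 0.07), Plk1 (0.13 ± 0.14), Aurkb (0.05 ± 0.06), Bub3 (0.09 ± 0.06), Foxm1 (0.00 ± 0.09) and Mybl2 (-0.02 ± 0.13) did not pass. The count fell when some libraries of either group were left out. Without +GFP replicate 2 or replicate 3, 1 of the 44 genes was called, and without TMPyP4 replicate 2 or 3, 3 were. In these fits 17.8% to 21.5% of all genes were called in either direction, beside 30% with all libraries.

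Compared directly, +Cre cells had higher levels than TMPyP4-treated cells for 6 of the 44 genes (13.6%) and lower for 0. Of all genes tested 6.13% were higher and 9.09% lower. The 6 were Cenpa (0.39 ± 0.08, adjusted p = 0.00106), Aurka (0.35 ± 0.09), Ccnf (0.33 ± 0.07), Ccnb1 (0.32 ± 0.08), Cdk1 (0.30 ± 0.06) and Kif20a (0.24 ± 0.06), 3 of them from the cyclin and CDK1 group. Cenpa was at 101, 110 and 105 CPM with TMPyP4, below each +Cre library. Hmmr, Mad2l1 and Bub1, the genes with the largest rises under TMPyP4, differed by 0.14 ± 0.09, 0.08 ± 0.10 and 0.01 ± 0.09, and Mki67 by 0.02 ± 0.13. Same-numbered libraries of these groups deviated together. Fitting that number as a block gave 9 higher genes and 1 lower, Foxm1 (adjusted p = 0.00591), beside 20.7% of all genes called in either direction. In the fit without the block, 2 passed without TMPyP4 replicate 2, and 3 passed without TMPyP4 replicate 1 or 3 or +Cre replicate 3. With these libraries left out 10.2% to 11.1% of all genes were called, beside 15.2% with all libraries.

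In cells carrying RTEL1 C1252A/C1255A, a form of RTEL1 mutated in the motif that binds the telomere protein TRF2, Cre changed little among these genes. Only Ccnb2 was increased, from 88.8, 91.9 and 92.3 CPM to 103, 116 and 113 CPM (log2 fold change 0.29 ± 0.05, adjusted p = 0.00437), where 0.525% of all genes tested were. The call was lost without each of 5 of the 6 libraries in turn. Ccnb1 (0.13 ± 0.08), Aurka (0.13 ± 0.09), Hmmr (0.10 ± 0.09), Birc5 (0.04 ± 0.09) and Mki67 (-0.13 ± 0.13) did not pass, and their groups overlapped. The median over the 44 genes was 0.01.

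In Terf1F/F cells, 0 of the 44 genes were called after Cre, where 3.42% of all genes tested were called in either direction. At an unadjusted p under 0.05 there were 4 genes (Cdk1, Ube2c, Kif23 and Racgap1), beside 2369 of the 13719 genes tested. DESeq2 called 0 of the 44, beside 3.45% of all genes. Cdk1 was at 230, 264 and 250 CPM and then at 277, 280 and 282 CPM (0.17 ± 0.06, adjusted p = 0.138). Ccnb1 (177, 194 and 188 CPM against 198, 197 and 207 CPM) had a log2 fold change of 0.11 ± 0.08, and no member exceeded 1.16-fold in either direction. The median was 0.02.

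The effect of Cre differed between lines for some of the genes. Relative to RTEL1 C1252A/C1255A cells, the log2 effect of Cre in Rtel1F/F cells was higher for 7 of the 44 genes (15.9%) and lower for 0 (interaction test in the same fit). Of all genes tested 12.8% were higher, near the share of the members, and 12.3% were lower. The 7 were Birc5 (0.52 ± 0.12, adjusted p = 0.00288), Aurka (0.52 ± 0.13), Hmmr (0.52 ± 0.13), Ccnb1 (0.51 ± 0.11), Kif20a, Bub1b and Kif23, a cytokinesis kinesin. Relative to Terf1F/F cells the effect of Cre in Rtel1F/F cells was higher for 10 (22.7%), namely Birc5, Aurka, Hmmr, Ccnb1, Kif20a, Bub1b, Kif23, Mad2l1, Tpx2 and Ccnb2, and lower for 0. Of all genes tested 15.8% were higher and 14.5% lower. Both tests use the Rtel1F/F +GFP libraries. In the former, 1 gene passed without Rtel1F/F +GFP replicate 2 or 3 or +Cre replicate 2, 3 without Rtel1F/F +Cre replicate 3, 2 without RTEL1 C1252A/C1255A +GFP replicate 2 or 3, and 4 without RTEL1 C1252A/C1255A +Cre replicate 3. In the latter, 3 passed without Rtel1F/F +GFP replicate 2, 5 without +GFP replicate 3, and 6 without Rtel1F/F +Cre replicate 2, Terf1F/F +Cre replicate 1 or 3, or Terf1F/F +GFP replicate 2. Of all genes, 17.0% to 20.8% were called in these fits for the former, beside 25.1% with all libraries. For the latter 21.9% to 24.8% were, beside 30.2%.

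The Rtel1F/F +GFP libraries also stood apart from another group with intact alleles. RTEL1 C1252A/C1255A +GFP cells, which had no Cre and no TMPyP4, were higher than Rtel1F/F +GFP cells for 18 of the 44 genes (40.9%) and lower for 1, Aspm (2.27%), where 22.6% and 22.1% of all genes tested were. Without Rtel1F/F +GFP replicate 2, 12 passed, beside 35.2% of all genes called in either direction (44.7% with all libraries). Kif18a was at 38.0, 38.1 and 38.7 CPM in Rtel1F/F +GFP and at 50.3, 65.3 and 56.2 CPM in RTEL1 C1252A/C1255A +GFP libraries (0.58 ± 0.11, adjusted p = 0.000211). Birc5 (140, 166 and 159 CPM, 0.58 ± 0.09), Aurka (95.7, 109 and 111 CPM, 0.57 ± 0.09), Hmmr (173, 204 and 179 CPM, 0.54 ± 0.09) and Ccnb1 (393, 463 and 415 CPM, 0.51 ± 0.08) were likewise higher in every library. Aspm was at 101, 105 and 92.2 CPM (-0.35 ± 0.10, adjusted p = 0.00418). Mki67, at 466, 452 and 395 CPM, overlapped (-0.27 ± 0.13, adjusted p = 0.0739). Summed fibroblast markers were lower (7319 to 8055 TPM against 8963 to 10074 TPM) and summed epithelial markers higher (6.69 to 10.45 TPM against 3.23 to 3.81 TPM) in these libraries too, without overlap, and their part was not tested. Expression of the mutant protein, the line and the handling of the libraries cannot be told apart in this comparison.

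Set against RTEL1 C1252A/C1255A +GFP cells as the control, a choice made after seeing the data, fewer of the genes passed. In Rtel1F/F +Cre cells 1 of the 44 genes (Ccnb2) was higher and 1 (Cdc20, which had not passed against Rtel1F/F +GFP) was lower, where 3.80% and 3.95% of all genes tested were. Ccnb1 then had a log2 difference of 0.12 (adjusted p = 0.368), Aurka 0.07 (adjusted p = 0.715), Hmmr 0.07 (adjusted p = 0.711), Birc5 -0.02 (adjusted p = 0.946) and Mki67 -0.32 (adjusted p = 0.114). With TMPyP4 0 genes were higher and 3 (Ccna2, Ccnf and Cdc20, none of which had passed against Rtel1F/F +GFP) were lower, where 9.94% and 7.07% of all genes tested were, and Hmmr was at -0.07 (adjusted p = 0.621). Same-numbered libraries of these groups deviated together, and with the block the counts were 1 higher and 1 lower for +Cre, and 0 higher and 7 lower for TMPyP4. With the block 10.4% and 23.9% of all genes were called in either direction.

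The scale of the values moved the direction of the whole group. In Rtel1F/F +Cre against +GFP cells, 37 of the 44 genes had a positive log2 fold change after TMM scaling, 30 after scaling to total counts and 21 as log2(TPM + 0.1). After TMM scaling, 6453 of the 13719 genes tested had a positive log2 fold change. The median of all genes shifted alongside, from -0.03 to -0.14 and -0.26, and the median of the 44 genes went from 0.23 to 0.13 and -0.01. Relative to the median of all genes, the mitotic genes were therefore higher on each of these scales. With total counts 9 genes were increased and 4 reduced. Of all genes 44% were called in either direction in that fit, beside 43.0% with TMM. The direction of Ccnb1, Aurka, Hmmr and Birc5 was positive and that of Mki67 negative in the tests on counts scaled by TMM and by total counts. With TMPyP4 the median of the 44 genes was 0.10, -0.00 and -0.10 on the 3 scales, beside -0.01, -0.11 and -0.19 for all genes.

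**Figure D4:**
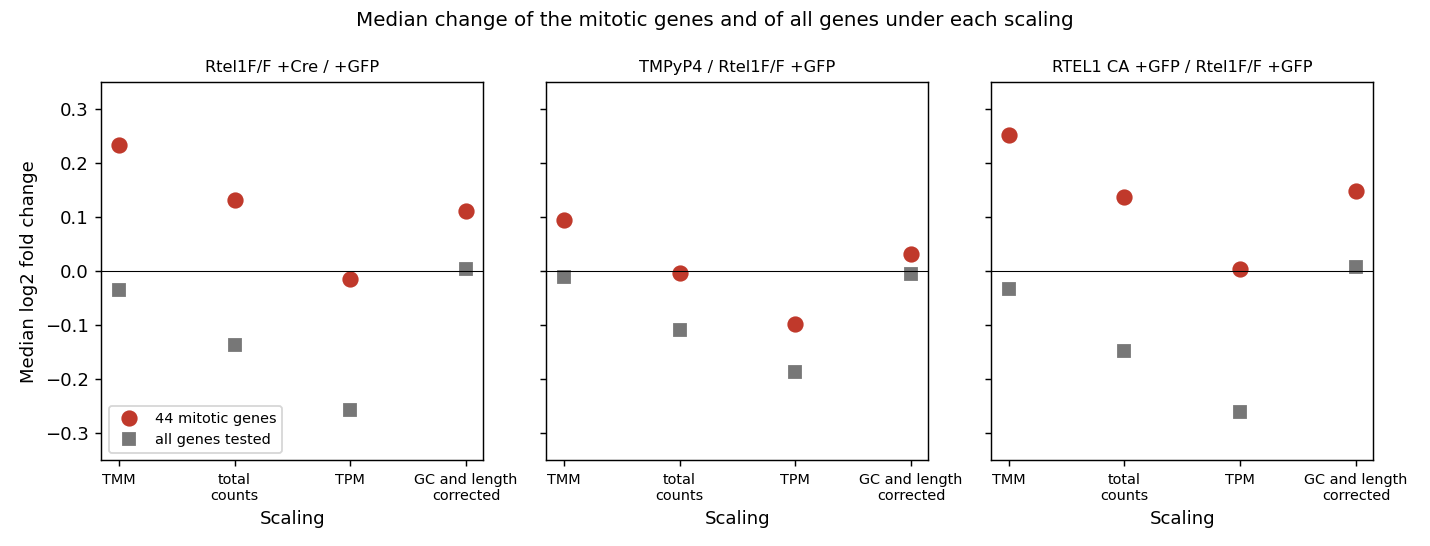
Median log2 fold change (vertical axis) of the 44 mitotic genes (circles) and of all genes tested (squares) under 4 scalings, in 3 comparisons that share the Rtel1F/F +GFP libraries. In each panel the circles lie above the squares, and for Rtel1F/F +Cre the circle moves from 0.23 with TMM to -0.01 in TPM.

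Among the 44 genes the fold changes moved with transcript length, and only weakly with GC content. The 3 members with the longest effective length implied by the deposited counts and TPM, Cenpf, Mki67 and Aspm (4.15, 3.77 and 3.68 times the median tested gene), had negative log2 fold changes after Cre and with TMPyP4, and short genes such as Birc5 (0.330 times) and Mad2l1 (0.598 times) had positive ones. Across the 44 genes the log2 fold change after Cre correlated with log2 length at r = -0.523 (r = -0.137 over 13625 genes) and with GC content at r = -0.125 (r = -0.227 over all), and with TMPyP4 at r = -0.438 and r = -0.232. These genes share libraries and are not independent. With each library corrected for GC and length, chosen after seeing the data, 18 genes were increased and 2 reduced after Cre. Of all genes 49.9% were called in either direction. The median was 0.11 for the 44 genes beside 0.00 over all genes. The called genes changed: Bub3 (-0.05, adjusted p = 0.714), Cenpa (0.03, adjusted p = 0.581) and Mad2l1 (0.12, adjusted p = 0.0490) no longer passed, while Mybl2 (0.59, adjusted p = 3.56e-07) and Plk1 (0.49, adjusted p = 8.22e-06) did. Ccnb1, Aurka, Hmmr, Birc5 and Mki67 passed with and without the correction, and whether GC content or length produced any of these changes was not tested.

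**Figure D5:**
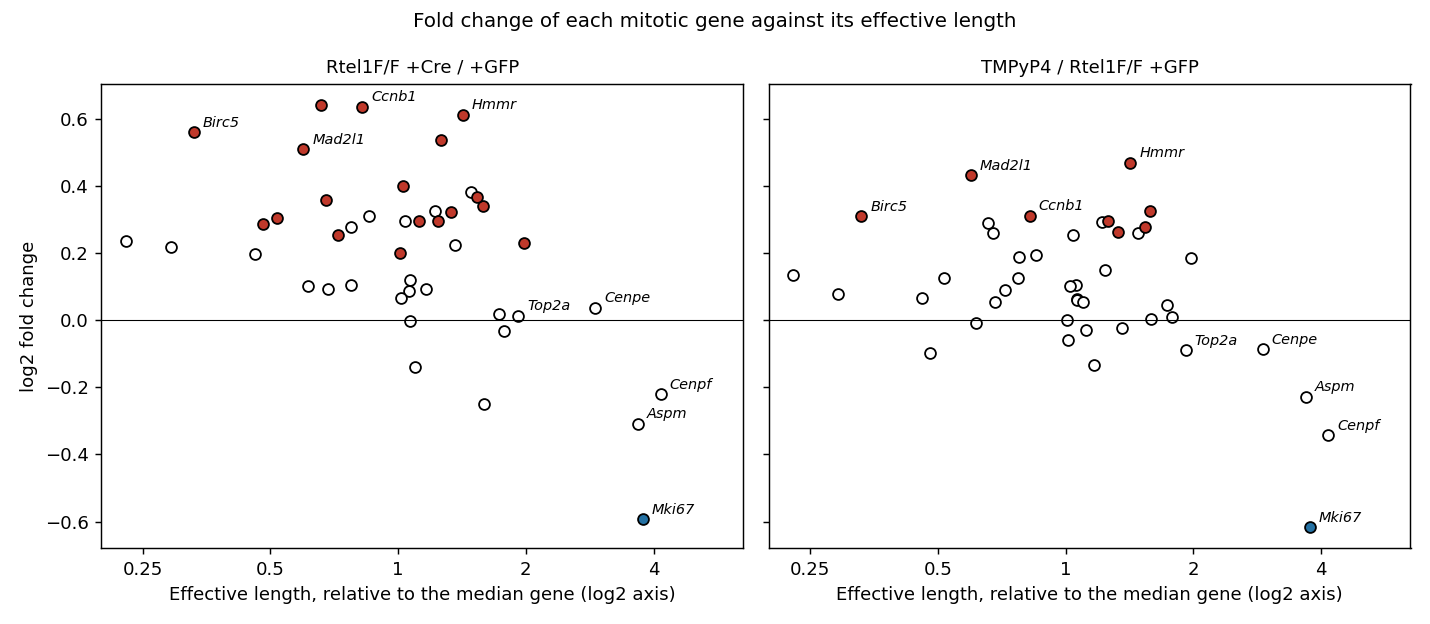
Log2 fold change (vertical axis) of each mitotic gene against its effective length relative to the median tested gene (log2 axis), after Rtel1 deletion (left) and TMPyP4 (right). Filled circles passed the test (red higher, blue lower). The 3 longest genes, Cenpf, Mki67 and Aspm, lie below 0 in both panels.

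Within groups the 44 genes did not all vary together. Correlating each gene's deviations from its group means with those of the mean of the other members over the 21 libraries, Tpx2 (r = 0.961), Bub1 (0.941) and Prc1 (0.941) followed the rest, and Plk1 (-0.659), Cdc25b (-0.655), Mybl2 (-0.636) and Foxm1 (-0.624) ran against it. Of the 13 genes with a transcript GC content of at least 50%, 8 had a negative r, and of the other 31 genes 4 did (Bub3, Cenpf, Mki67 and Aspm). The 4 genes that ran most against the rest had GC contents of 54.2% to 56.3%, and Tpx2, Bub1 and Prc1 had 41.0% to 47.8%. Genes of at least 50% with a positive r included Aurka (51.4%, r = 0.811), Bub1b (50.4%, r = 0.761) and Kif2c (50.3%, r = 0.715). Whether GC content had a part in this was not tested.

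Wider lists of mitotic and cell cycle genes held both rises and falls. Of 62 further mitotic genes 17 (27.4%) were increased and 5 (8.06%) reduced after Cre, beside 22.0% and 21% of all genes tested, with a median log2 fold change of 0.16. Among those that passed, the largest rises were in Bora, an activator of Aurora A and PLK1 (0.87 ± 0.10), and Trip13, which recycles MAD2 (0.75 ± 0.10), and the largest falls in Iqgap3 (-0.63 ± 0.14) and the kinetochore gene Spc24 (-0.50 ± 0.12). Of 20 APC/C and mitotic exit genes 8 (40.0%) were increased, led by the subunits Anapc10 (0.73 ± 0.13) and Anapc15 (0.71 ± 0.09), and 1, Anapc2 (-0.32 ± 0.08), was reduced.

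Of 39 G1/S genes 10 (25.6%) were increased and 6 (15.4%) reduced after Cre, shares near those of all genes tested for the rises and below them for the falls, with a median of 0.12. Ccne1 (cyclin E1) rose by 1.41 ± 0.08 and Ccnd1 (cyclin D1) by 1.35 ± 0.15 on the log2 scale, and the chromatin assembly gene Chaf1b (-0.62 ± 0.08) and the replicative helicase gene Mcm2 (-0.46 ± 0.14) fell. Of 18 genes of DREAM, MuvB and cell cycle repression 4 (22.2%, as among all genes) were increased and 6 (33.3%) reduced. Cdkn1a, the CDK inhibitor p21, was increased 2.33-fold (1.22 ± 0.06, adjusted p = 1.60e-11), and Cdkn1b, the inhibitor p27, was reduced (-1.23 ± 0.12, adjusted p = 1.23e-07), while E2f5 rose (0.67 ± 0.11) and Lin37, a MuvB subunit, fell (-0.65 ± 0.12). The changes of Ccne1, Ccnd1, Cdkn1a and Cdkn1b were each larger than any among the 44 mitotic genes. With RTEL1 C1252A/C1255A and in Terf1F/F cells, 0 of the further mitotic and 0 of the APC/C genes were called after Cre, beside 1.09% and 3.42% of all genes tested. At an unadjusted p under 0.05 there were 3 and 0 in the former and 7 and 0 in the latter, beside 1950 and 2369 of the 13719 genes tested. The other lists gave only Cdkn1a (0.62 ± 0.06 and 0.77 ± 0.05) and Ccne1 (0.44 ± 0.08 and 0.58 ± 0.07).

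With TMPyP4, 6 of the 62 further mitotic genes (9.68%) were increased and 3 (4.84%) reduced, both below the 16.6% and 13.4% of all genes tested. Trip13 (0.59 ± 0.10) and Cep55, an abscission factor (0.53 ± 0.14), rose, and Spc24 (-0.53 ± 0.12) and the condensin gene Ncapd2 (-0.36 ± 0.07) fell. Of the G1/S genes 5 (12.8%) were increased and 3 (7.69%) reduced, also below those shares, among them Ccnd2 (1.19 ± 0.15), Ccnd1 (0.76 ± 0.15), Chaf1b (-0.47 ± 0.08) and Mcm5 (-0.44 ± 0.08). Of the APC/C genes 6 (30%) were increased, led by Anapc15 (0.62 ± 0.09) and Anapc10 (0.57 ± 0.13). Of the repressor list 4 (22.2%) were increased and 4 (22.2%) reduced, among them Cdkn1a (0.84 ± 0.06), E2f5 (0.48 ± 0.11), Cdkn1b (-0.83 ± 0.12) and Tfdp2 (-0.24 ± 0.07).

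The genes outside the list whose level over the 21 libraries was most like the mean of the 44 were Actl6a (Pearson r = 0.995), Cers2 (0.995), Slc39a14 (0.994), Cebpz (0.994) and Pspc1 (0.994), of 11796 genes whose mean reached 1 CPM. Most of the range of that mean lay between the Terf1F/F libraries, at 6.70 to 6.78 log2 CPM, and the Rtel1F/F libraries, at 7.10 to 7.39.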

How the data were processed

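Per the labels and the submitters' processing notes, cutadapt 1.9.1 was used for trimming, STAR 2.5.2a for alignment and RSEM 1.3.0 for quantification against RefSeq genes of mm10. The authors deposited RSEM expected counts, which were whole numbers and not normalized, and TPM values of the same genes. Total counts were 32069888 or more per library. Counts were fitted in R 4.3.3 with edgeR 4.0.16 (TMM, filterByExpr, robust quasi-likelihood fit, 1 coefficient for each of 7 groups over all 21 libraries, two-sided test, Benjamini-Hochberg adjustment over 13719 genes), with an adjusted p no larger than 0.01 counted as a change. The fit was tested on simulated data. CPM used TMM-scaled library sizes, and log2 CPM a prior count of 2. The alternatives included DESeq2 1.42.0. The GC content and promoters came from GENCODE vM21 transcripts and RefSeq windows of GRCm38.p6. Figures used Python 3.11.15 and matplotlib 3.10.9.

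The members, lists and comparisons were chosen with earlier results of these data known. Named members were Mki67, Top2a, Ccnb1, Cdk1, Plk1, Aurkb, Bub3, Foxm1 and Mybl2, and up to 3 largest called rises and falls in each of 6 comparisons, with, from each other list, the 2 largest each way. Other members, and the promoters shown, were picked after their values were seen. Deviations of same-numbered libraries from group means correlated over 11840 genes at 0.724, 0.758 and 0.409 for Rtel1F/F +Cre with TMPyP4 and at 0.864, 0.839 and 0.424 for the pair of RTEL1 C1252A/C1255A groups, so pairing (all 3 above 0.1) held there and for the comparisons with the RTEL1 C1252A/C1255A +GFP control. It did not hold in the other comparisons.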

Additional observations from a re-analysis of the deposited data

Results flagged for a closer look

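Named mitotic genes whose response to Cre differed between lines are listed because the difference itself passed edgeR's interaction test. Over all genes tested, 12.8% were higher in the test against RTEL1 C1252A/C1255A cells, near the 15.9% of the 44 genes. In the test against Terf1F/F cells 15.8% were, beside 22.7% of the 44 genes. Against RTEL1 C1252A/C1255A cells the log2 effect of Cre in Rtel1F/F cells was higher by 0.51 for Ccnb1 (adjusted p = 0.00149), by 0.52 for Aurka (adjusted p = 0.00393), by 0.52 for Hmmr (adjusted p = 0.00387) and by 0.52 for Birc5 (adjusted p = 0.00288). Against Terf1F/F cells it was higher by 0.53 for Ccnb1 (adjusted p = 0.000858), by 0.57 for Aurka (adjusted p = 0.00159), by 0.55 for Hmmr (adjusted p = 0.00214), by 0.60 for Birc5 (adjusted p = 0.000788), by 0.52 for Mad2l1 (adjusted p = 0.00578) and by 0.26 for Ccnb2 (adjusted p = 0.00904). Of 18 alternatives planned for each, the former differences passed in 14 for Ccnb1, 10 for Aurka, 9 for Hmmr and 11 for Birc5, and the latter in 17 for Ccnb1, 17 for Aurka, 12 for Hmmr, 18 for Birc5, 8 for Mad2l1 (adjusted p up to 0.0298) and 5 for Ccnb2 (adjusted p up to 0.0541). The 18 include an adjusted p of 0.05 on the same fit, which each of these differences meets by definition. All of these differences contain the Rtel1F/F +GFP libraries, whose deviations from their group mean correlated at no more than 0.140 with those of same-numbered libraries in any other group, while those of Rtel1F/F +Cre and RTEL1 C1252A/C1255A +GFP correlated at 0.781, 0.811 and 0.195.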

How the results depend on the processing

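Of 152 results for 19 named genes, 45 passed, of which 22 passed without each library in turn and 9 under every alternative. Of 2584 alternative values, 2134 kept direction and side of the threshold, 183 fell short of it, 98 passed it newly and 169 changed sign, 26 of them for results that passed in at least 1 of the fits compared and 143 for results that passed in neither. Leaving out each library in turn gave 12 to 20 members for Rtel1F/F +Cre against +GFP, 1 to 10 for TMPyP4, 0 to 1 for RTEL1 C1252A/C1255A +Cre, 0 to 0 for Terf1F/F, 2 to 4 for +Cre against TMPyP4, 12 to 20 for RTEL1 C1252A/C1255A +GFP against Rtel1F/F +GFP, and 1 to 8 and 3 to 11 for the differences from RTEL1 C1252A/C1255A and Terf1F/F cells. Why the counts moved between fits was not tested.

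In this and the next paragraph, percentages in parentheses are the share of all genes called in the same fit. Fitting only the groups compared gave 10 members for +Cre against +GFP (34.4%), 0 for RTEL1 C1252A/C1255A (0.0%), 1 for +Cre against TMPyP4 (7.46%), 11 for the +GFP groups (37.6%) and 1 for the difference from RTEL1 C1252A/C1255A cells (16.9%). DESeq2's size factors gave 4 with TMPyP4 (28.3%) and 0 for RTEL1 C1252A/C1255A (1.06%). No filter on low counts gave 5 (20.6%), 0 (0.707%) and, for +Cre against TMPyP4, 3 (9.97%). An adjusted p of 0.05 gave 14 with TMPyP4 (43.0%), 12 for +Cre against TMPyP4 (25.2%) and 13 for the difference from RTEL1 C1252A/C1255A cells (38.1%). The replicate block gave 14 with TMPyP4 (39.6%), 10 for +Cre against TMPyP4 (20.7%) and 12 for the difference from RTEL1 C1252A/C1255A cells (33.5%). Pairing held for the RTEL1 C1252A/C1255A groups too, and the block left their count at 1 (1.57%).

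The alternatives chosen after seeing the data were the GC and length correction, total counts and the other control. The correction gave 1 member for Terf1F/F (Cdk1, 6.86%), 11 for +Cre against TMPyP4 (24.9%) and 14 for the difference from RTEL1 C1252A/C1255A cells (33.7%). With the block it gave 1 (8.73%), 13 (29.4%) and 16 (39.2%), and 16 with TMPyP4 (43.7%). Total counts gave 4 with TMPyP4 (1 higher, 3 lower, 29.1%), 11 for the +GFP groups (44.8%) and 2 for the difference from RTEL1 C1252A/C1255A cells (24.5%). RTEL1 C1252A/C1255A +GFP as the control gave 2 for +Cre (7.76%), also with the block (10.4%), and 3 for TMPyP4 (17.0%). Among results that passed in at least 1 of the fits compared, log2 values changed sign for Bub3 after Cre under the correction (-0.0534, with the block -0.0573) and, with the other control without and with the block, for Bub3 (-0.00631 and -0.0061), Bub1 (-0.128 and -0.126), Ccnf (-0.0218 and -0.0228) and Birc5 (-0.0186 and -0.0166). For TMPyP4 the other control gave Ccnb1 -0.200 and -0.198, Hmmr -0.0695 and -0.0677, Mad2l1 -0.0373 and -0.0347, Bub1 -0.141 and -0.137, Birc5 -0.269 and -0.268, and Aurka -0.280 both without and with the block (it passed with the block alone), and the correction with the block gave Mybl2 0.214. Between the +GFP groups the correction without and with the block gave Bub3 -0.0189 and -0.0254 and Foxm1 0.180 and 0.177. The other control also changed the sign of results that passed in neither fit (10 without and 9 with the block), among them, without the block, Kif18a (-0.257), Plk1 (-0.0876), Top2a (-0.0186) and Aspm (0.0455) after Cre and Kif18a (-0.289), Plk1 (-0.239), Bub3 (-0.171), Cdk1 (-0.162) and Aspm (0.126) with TMPyP4.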
